A study of Mus musculus with 9 samples.

Results

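The 37 aminoacyl-tRNA synthetase genes described here were chosen by name from a table of 13179 mouse genes. A gene was taken when its symbol was a single letter followed by "ars", with or without a closing 1 or 2, or when it was Eprs, Farsa, Farsb, Qars or Pars2. Of these genes, 20 encode cytosolic enzymes and the 17 whose symbols end in 2 encode mitochondrial enzymes. All 37 passed the filter on low values, as did 13137 genes in all.

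RNA was measured in the gastrocnemius, a calf muscle, of mice that had all been fed a high-fat diet for 6 weeks. The 3 groups were labelled control, p38alphaMCK-KO and p38alpha/gammaMCK-KO, with 3 libraries each, and are called control, p38α KO and p38α/γ KO below. The knockouts lack p38α (Mapk14), or p38α and p38γ (Mapk12), kinases of the stress-activated MAP kinase family. MCK stands for muscle creatine kinase, whose promoter drives deletion in muscle fibres, so that other cells of the tissue keep the genes. The labels give the controls no further genotype and give no age. Nor do they say whether the libraries of a group came from separate mice, so the p-values measure only the spread between these libraries. The study contrasted each knockout with control and the knockouts with each other. Both knockouts were set against the same control libraries, so the first pair of contrasts is not independent.

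Aminoacyl-tRNA synthetases join each amino acid to its tRNA, the step that gives the genetic code its meaning. The cytosol and the mitochondria use separate enzymes for most amino acids, all encoded in the nucleus, while Gars and Kars each make the form for both compartments. Several cytosolic enzymes sit together in a multi-synthetase complex, and many cytosolic synthetase genes are known targets of ATF4, the transcription factor of the amino acid response. In muscle, the mitochondrial enzymes serve the translation of respiratory chain subunits.

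Short stretches of promoter are shown first because they hold the motifs counted in the genes described below. RefSeq windows on GRCm38.p6, from 250 bases before to 50 bases after the gene's start, were at hand for 26 of the 37 genes, 12 cytosolic and 14 mitochondrial. The C/EBP-ATF element (TGATGNAA, either strand), the kind of site to which ATF4 binds with a C/EBP partner, was found in 5 of the 12 cytosolic windows and in 0 of the 14 mitochondrial windows. Of all 27025 genes with a window, 4.51% held it. The following lines give 30 bases around 1 match in each gene, the one nearest to the start, 5′ to 3′ on the gene's strand, with the element in capitals.
Aars, chr8:111033840-111033869, + strand: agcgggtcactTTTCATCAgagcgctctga
Gars, chr6:55037960-55037989, + strand: tggctgcgctaTTTCATCAtgcaccgggcg
Iars, chr13:49682126-49682155, + strand: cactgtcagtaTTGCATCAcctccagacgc
Tars, chr15:11399655-11399684, - strand: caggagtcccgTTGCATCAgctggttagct
Yars, chr4:129189895-129189924, + strand: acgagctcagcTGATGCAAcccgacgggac

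The E-box (CACGTG, the same on both strands) lay in 4 of 12 cytosolic windows, those of Aars, Farsb, Iars and Tars, and in 1 of 14 mitochondrial windows, that of Ears2. It lay in 8.09% of all windows. The ETS core (CCGGAAG, either strand) was found in 4 of 12 cytosolic windows (Farsa, Gars, Kars and Sars) and 4 of 14 mitochondrial windows (Cars2, Mars2, Rars2 and Sars2), against 9.93% of all windows. Below, the E-box or the ETS core is in capitals for genes described further on. None of these matches was tested as a binding site.
Aars, E-box, chr8:111033684-111033713, + strand: agtcaaccctgtCACGTGacactccatgtc
Iars, E-box, chr13:49682049-49682078, + strand: gaccaatcgccaCACGTGttgtttgtaggt
Farsa, ETS core, chr8:84856953-84856982, + strand: cgctatcgcgaCTTCCGGttccagttccgg
Cars2, ETS core, chr8:11550771-11550800, - strand: gagtgtagcctCTTCCGGgagtgggcggag
Sars2, ETS core, chr7:28741803-28741832, + strand: acctccagcccCTTCCGGggttcctcctta

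The libraries held an implied 23820968 to 27944409 reads. Mapk14 lay at 142.7 to 156.7 in control, at 40.31 to 45.48 in p38α KO and at 37.04 to 54.73 in p38α/γ KO. Mapk12 lay at 137.9 to 152.2 in control, at 96.52 to 105.1 in p38α KO and at 31.19 to 35.5 in p38α/γ KO. Mapk14 fell in both knockouts (log2 -1.77 and -1.73), and Mapk12 fell in both as well, by 0.49 and 2.08 on the log2 scale. One library stood apart: p38α KO 1 correlated at 0.96 with p38α KO 3, whereas pairs of libraries within the other groups reached at least 0.987. Markers of muscle fibres were abundant in every library, but their summed value was 151218.8 to 165632.8 in control, 95642.5 to 133681.4 in p38α KO (lowest in library 1) and 114869.6 to 120828.8 in p38α/γ KO. Myh4, the largest of them in control, lay at 50576.9 to 54052.5 there. It lay at 16780.9 to 49300.1 in p38α KO (lowest in library 1) and 26354.2 to 29671.4 in p38α/γ KO. In p38α KO 1, Myh1 (6935.3) and Myh2 (4582.1) lay above every control library, and Des (3759.4) lay within the control range. The other fibre markers lay below every control library there. The part of fibre types in the sum was not tested. Of 10 fibre markers, 1 fell in p38α KO and 0 in p38α/γ KO. For this and the marker counts that follow, 7.32% of all genes tested rose and 10.4% fell in p38α KO. In p38α/γ KO 11.2% rose and 14.4% fell. The summed value of 12 macrophage markers was 131.5 to 178.9 in control, 250.8 to 561.9 in p38α KO (highest in library 1) and 327.1 to 536.0 in p38α/γ KO, and 9 and 11 of them rose. Of 6 markers of fibro-adipogenic progenitors, 1 and 4 rose. Among 6 endothelial, 6 adipocyte and 5 tendon markers, 1 adipocyte marker fell in p38α KO, and 1 endothelial and 1 tendon marker rose and 1 endothelial marker fell in p38α/γ KO. The 5 lymphocyte markers were not analysed here. The part that these shifts play in the synthetase values was not tested. In RNA from whole muscle, fewer cells of a type and less RNA per cell cannot be told apart.

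In control muscle the cytosolic genes were the more abundant class. Values here are the authors' normalised counts, divided for this purpose by the merged exon length of each gene. That length joins the exons of all annotated transcripts, whether or not muscle expresses them, so values per kilobase are approximate. Undivided, the medians were 64.4 for cytosolic and 12.6 for mitochondrial genes. Per kilobase, the cytosolic genes had a median of 14.2, from 4.76 for Farsa (the catalytic subunit for phenylalanine) to 28.8 for Nars (asparagine). The mitochondrial median was 3.19, from 0.754 for Mars2 (methionine) to 25.7 for Lars2 (leucine). Lars2 was the outlying mitochondrial gene, since the next, Iars2, lay at 7.88 ± 0.778 (SD, n = 3) per kilobase.

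For 14 amino acids both a cytosolic and a mitochondrial gene were measured, and the cytosolic one was higher per kilobase in 13, with a median ratio of 3.53 in control. Leucine was the exception, with a Lars to Lars2 ratio of 0.393 ± 0.0186 (SD, n = 3). At the other end were Nars to Nars2 at 35.4 ± 2.15 and Mars to Mars2 at 25.7 ± 1.76. The latter depended much on length: control means before division were 66.06 for Mars (3.42 kilobases) and 8.519 for Mars2 (11.3 kilobases). The ratio for serine, Sars to Sars2, was 5.84 ± 0.225 in control, 4.11 ± 0.167 in p38α KO and 4.25 ± 0.238 in p38α/γ KO. That for cysteine, Cars to Cars2, was 3.11 ± 0.0996, 2.18 ± 0.424 and 1.97 ± 0.0844 in the same order. For isoleucine, Iars to Iars2 was 2.01 ± 0.0852 in control, 1.88 ± 0.388 in p38α KO and 1.46 ± 0.198 in p38α/γ KO. This ratio is uncertain, because Iars2 shares 22.9% of its exonic bases with Rab3gap2 on the opposite strand. The serine and cysteine ratios thus lay lower in both knockouts, the isoleucine ratio mainly in p38α/γ KO. Other ratios lay higher, such as that for valine, Vars to Vars2, at 3.85 ± 0.382 in control, 5.47 ± 1.39 in p38α KO and 4.18 ± 0.314 in p38α/γ KO. The ratio for tryptophan, Wars to Wars2, was 13.0 ± 3.38, 18.1 ± 4.49 and 15.3 ± 0.318 in the same order, with a wide spread in control. These ratios were not tested, and the ones shown were chosen after their values were seen.

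**Figure D1:**
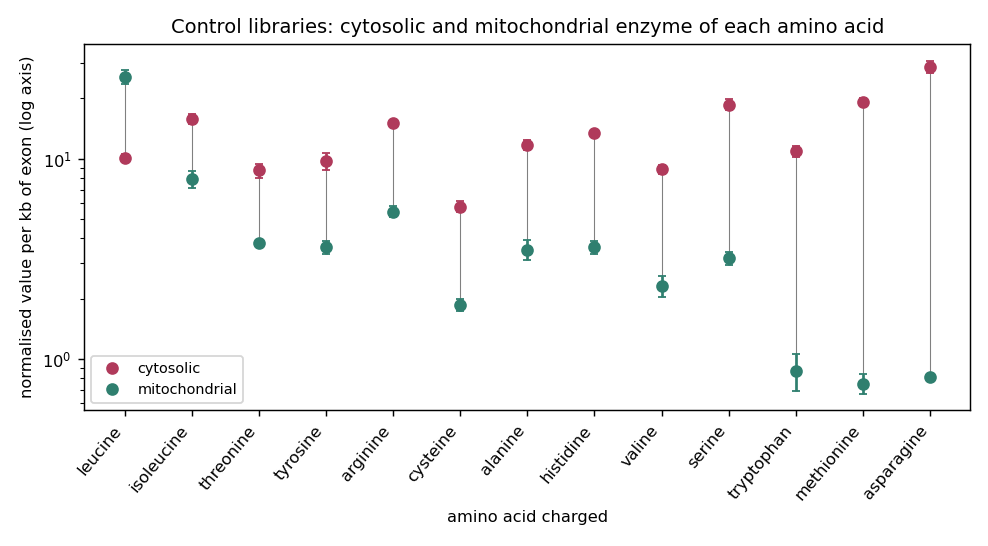
Normalised count per kilobase of merged exon in control, on a logarithmic axis, for the cytosolic and the mitochondrial gene of 13 amino acids, ordered by their ratio (points, mean of 3 libraries; bars, SD). The cytosolic gene lies higher for each except leucine, for which the mitochondrial Lars2, at 25.7, lies above Lars.

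Of the 20 cytosolic synthetase genes, 4 fell and 1 rose in p38α/γ KO against control, and 15 did not pass the test. Iars, Dars, Mars and Aars fell by 1.35 to 1.57 fold and Farsa rose 1.23-fold. Among the 17 mitochondrial genes, Sars2, Pars2 and Cars2 rose by 1.29 to 1.48 fold. In all, 9 of 37 members were called at a Benjamini-Hochberg adjusted p of 0.05 in limma, or 24.3%, against 25.6% of all genes tested, so the share called was near the background. Of the members 4 rose and 5 fell, while 11.2% of all genes rose and 14.4% fell.

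The direction was more uniform among cytosolic genes than the calls show. The fitted log2 difference was below 0 for 18 of 20 cytosolic genes, with a median of -0.21, and for 10 of 17 mitochondrial genes, with a median of -0.07. Over all genes tested the median was 0.02. The groups did not overlap for 27 of 37 members, against 55.0% of all genes. In 15 of 20 cytosolic genes every p38α/γ KO library lay below every control library, while this held for 28.6% of all genes. The genes were Aars, Cars, Dars, Eprs, Farsb, Gars, Iars, Lars, Mars, Nars, Qars, Rars, Tars, Vars and Yars. Farsa and Hars, 2 of 20, lay above every control library, against 26.4% of all genes, and Kars, Sars and Wars overlapped with control. Of the mitochondrial genes, 6 of 17 lay wholly below control, among them Aars2, Iars2, Rars2, Vars2 and Yars2, and 4 of 17 wholly above it (Cars2, Pars2, Sars2 and Tars2). Without Gars and Kars the cytosolic median was -0.22 over 18 genes.

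**Figure D2:**
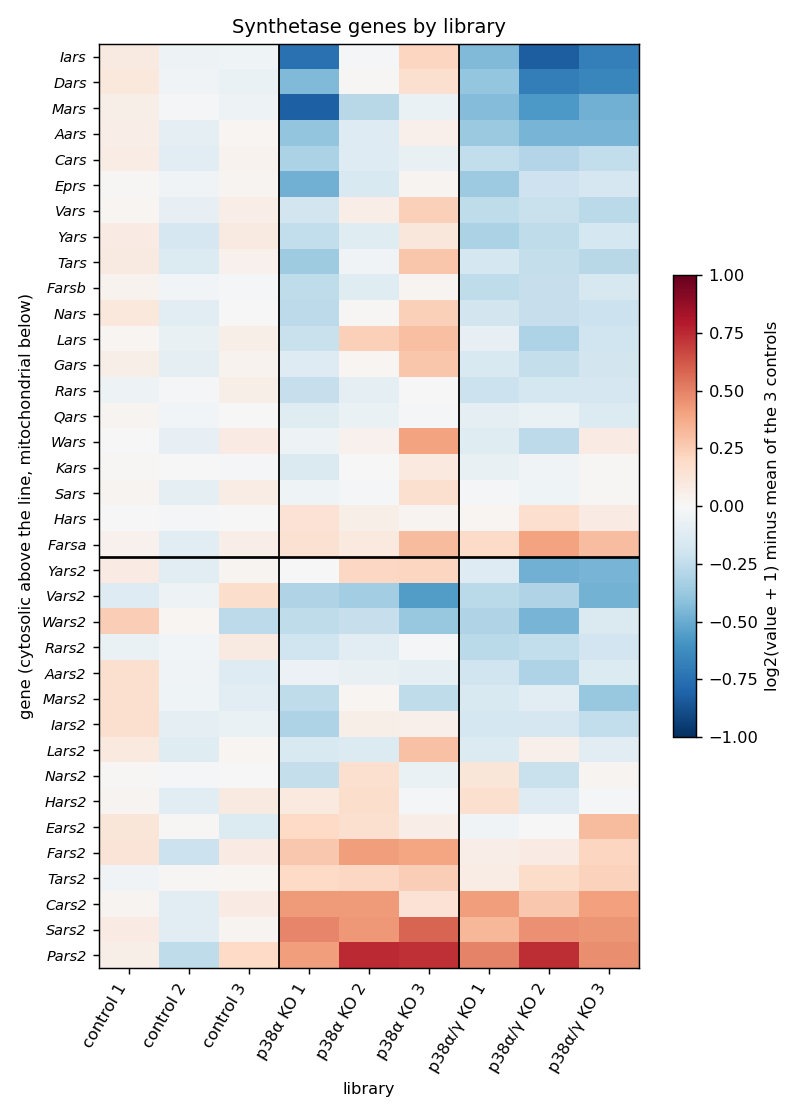
Log2 deviation of each of 36 genes from its control mean, with genes in rows by compartment and the 9 libraries in columns. The p38α/γ KO columns are mostly below control among the cytosolic rows, and p38α KO 1 stands apart from p38α KO 3 there.

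Iars, the isoleucine enzyme of the multi-synthetase complex (chr13:49682100-49734267, + strand), showed the largest difference among cytosolic genes in p38α/γ KO. It measured 88.36, 80.32 and 80.78 in control, 49.22, 81.87 and 96.79 in p38α KO, and 60.76, 46.43 and 51.30 in p38α/γ KO. The p38α/γ KO libraries were all below control, whereas the p38α KO libraries spanned it on both sides. Iars fell by 0.65 on the log2 scale (SE 0.21, 1.57-fold, limma adjusted p = 0.0469) in p38α/γ KO.

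Dars joins aspartate to its tRNA within the same complex (chr1:128363707-128417368, - strand). It measured 75.48, 68.23 and 66.87 in control, 51.46, 70.83 and 78.62 in p38α KO, and 53.47, 42.97 and 44.22 in p38α/γ KO. Only the p38α/γ KO libraries lay apart from control. The fall there was 1.49-fold (log2 -0.58, SE 0.151, limma adjusted p = 0.0243).

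Mars, the methionine enzyme of the complex (chr10:127296221-127311786, - strand), measured 68.84, 65.63 and 63.70 in control, 37.07, 54.25 and 63.08 in p38α KO, and 48.64, 44.06 and 46.92 in p38α/γ KO. Both knockouts lay below control, by a small margin for p38α KO 3. The log2 difference was -0.50 (SE 0.161, 1.41-fold, limma adjusted p = 0.0475) in p38α/γ KO and -0.39 (adjusted p = 0.122, not called) in p38α KO. The latter rested on single libraries, being -0.17 (limma adjusted p = 0.196) without p38α KO 1 and -0.55 (0.0232, called) without p38α KO 3. Mars shares 68 exonic bases with Ddit3 on the opposite strand, and whether the counting used strand is not given in the sources used here.

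Aars, the alanine enzyme, which works outside the complex (chr8:111033144-111057664, + strand), measured 113.6, 101.5 and 109.7 in control, 82.17, 98.78 and 111.9 in p38α KO, and 83.31, 77.97 and 78.09 in p38α/γ KO. The p38α/γ KO libraries lay close together and below control. Aars fell 1.35-fold (log2 -0.43, SE 0.111, limma adjusted p = 0.0226), and its -0.16 in p38α KO was not called.

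Farsa was the cytosolic gene that rose. It encodes the catalytic subunit of the phenylalanine enzyme (chr8:84856989-84869257, + strand), and its partner subunit is Farsb. Farsa measured 22.22, 19.97 and 22.65 in control, 24.07, 23.19 and 27.19 in p38α KO, and 24.85, 28.90 and 26.93 in p38α/γ KO. Both knockouts lay above control in every library. Its difference in p38α/γ KO was 0.30 (SE 0.0984, 1.23-fold, limma adjusted p = 0.0479), and that in p38α KO, 0.19, was not called. The partner Farsb differed by -0.21 in p38α/γ KO (adjusted p = 0.0932), so the subunits of this enzyme had opposite signs.

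The 8 enzymes of the multi-synthetase complex, Eprs, Iars, Lars, Mars, Qars, Rars, Kars and Dars, had a median log2 difference of -0.22 in p38α/γ KO, with 3 called. The 12 cytosolic genes outside it had a median of -0.21, with 1 fallen and 1 risen, against 14.4% of all genes fallen and 11.2% risen. The complex and the other cytosolic genes were therefore alike in their medians. The cytosolic enzymes of catalytic class I, whose active site has a Rossmann fold, had a median of -0.25 over 9 genes, and those of class II, built on an antiparallel sheet, -0.20 over 10. Eprs joins an enzyme of each class and was left out of both.

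Kars (lysine) and Gars (glycine), which serve both compartments, were not called against control in the main fit. Kars measured 94.60, 93.59 and 93.18 in control, 84.62, 93.68 and 100.7 in p38α KO, and 88.92, 91.45 and 94.56 in p38α/γ KO. Gars measured 84.19, 75.78 and 82.77 in control, 73.97, 82.08 and 98.36 in p38α KO, and 72.63, 68.19 and 71.09 in p38α/γ KO. In limma the log2 differences in p38α/γ KO were -0.03 (adjusted p = 0.781) for Kars and -0.19 (adjusted p = 0.197) for Gars, whose p38α/γ KO libraries all lay below control. Wars, the tryptophan enzyme that interferon induces, was not called either. It measured 37.77, 35.45 and 39.95 in control, 36.26, 38.84 and 50.17 in p38α KO, and 34.66, 31.24 and 40.04 in p38α/γ KO, so all groups overlapped.

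The mitochondrial genes moved in both directions in p38α/γ KO. Sars2, the mitochondrial serine enzyme (chr7:28741992-28753871, + strand), measured 11.20, 9.697 and 10.77 in control, 15.21, 14.58 and 16.24 in p38α KO, and 13.54, 14.86 and 14.68 in p38α/γ KO. Every library of both knockouts lay above every control library. Sars2 rose 1.42-fold in p38α KO (log2 0.50, SE 0.0941, limma adjusted p = 0.009) and 1.33-fold in p38α/γ KO (log2 0.41, adjusted p = 0.0158). Its cytosolic counterpart Sars had log2 differences of 0.03 and -0.01, and neither was called.

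Pars2, the mitochondrial proline enzyme (chr4:106651069-106655282, + strand), rested on few reads. It measured 3.058, 2.271 and 3.490 in control, 4.228, 5.561 and 5.495 in p38α KO, and 4.501, 5.501 and 4.403 in p38α/γ KO. Here too the knockouts lay wholly above control. The increases were 1.55-fold (log2 0.63, SE 0.155, limma adjusted p = 0.023) and 1.48-fold (log2 0.57, adjusted p = 0.0282), on a scale that adds 1 to each value and so understates changes of low genes.

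Cars2 joins cysteine to mitochondrial tRNA (chr8:11513977-11550783, - strand). It measured 13.71, 12.38 and 14.24 in control, 18.36, 18.34 and 14.92 in p38α KO, and 18.27, 16.36 and 18.21 in p38α/γ KO. All knockout libraries lay above control, p38α KO 3 by a small margin. Cars2 rose 1.29-fold in p38α/γ KO (log2 0.37, SE 0.108, limma adjusted p = 0.0355), while its 0.33 in p38α KO had an adjusted p of 0.0619. Of its exonic bases, 422 are shared with Naxd on the opposite strand.

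**Figure D3:**
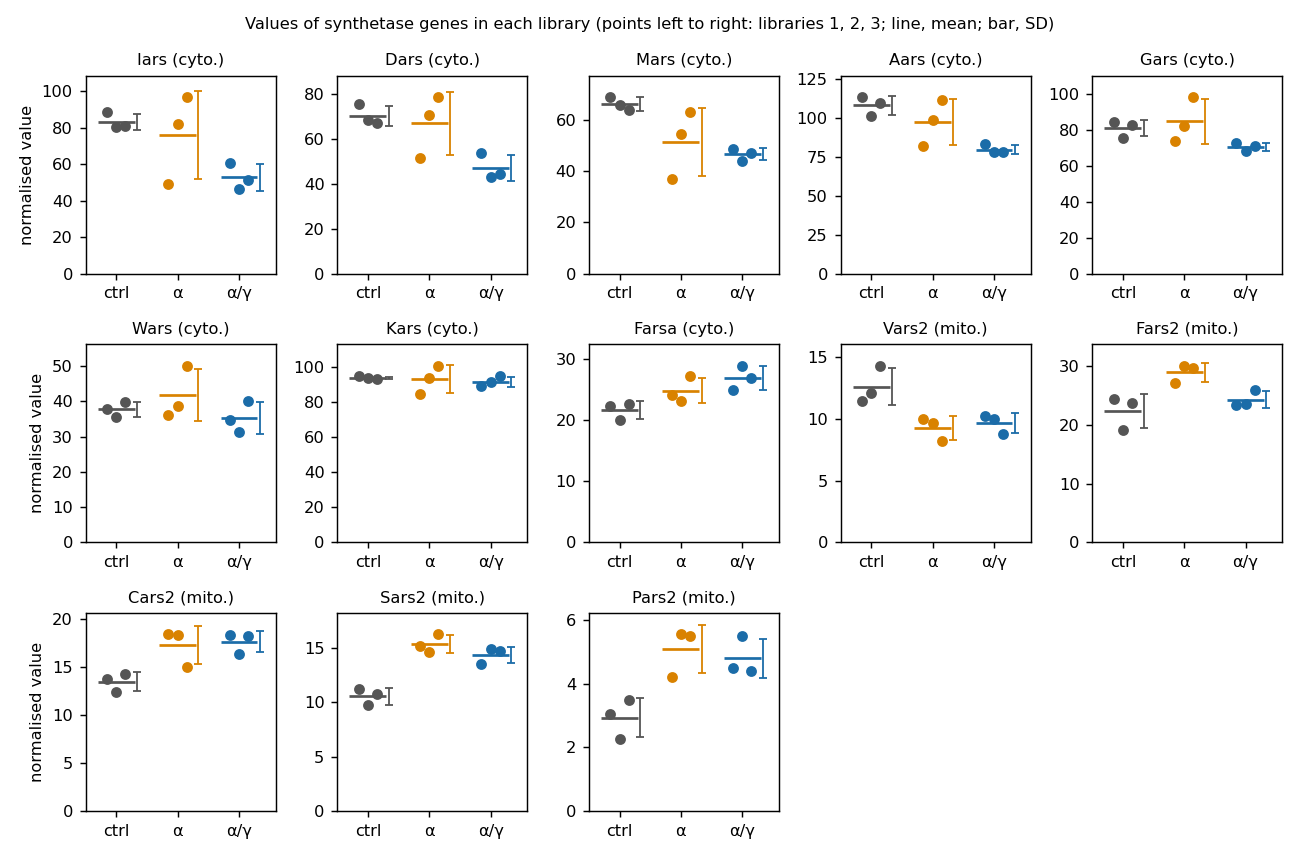
Normalised counts of the 13 genes described one by one, with a point for each of the 9 libraries by group (ctrl, control; α, p38α KO; α/γ, p38α/γ KO), a line at each group mean and a bar for the SD; the vertical axes start at 0 and differ between genes. Iars, Dars, Mars and Aars lie lower in p38α/γ KO, and Sars2 and Pars2 lie higher in both knockouts.

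The number of calls in p38α/γ KO depended on single libraries and on the model. The labels give no pairing of libraries. Deviations of same-numbered control and p38α/γ KO libraries correlated only weakly, at 0.111 to 0.148, which does not establish pairs. With the replicate number as a block, 3 of 37 genes were called, among them Sars2 (limma adjusted p = 0.0355) and Aars (0.0451), against 17.7% of all genes. Blocked adjusted p-values were 0.0521 for Dars, 0.0526 for Pars2, 0.0642 for Cars2, 0.0729 for Mars, 0.077 for Iars and 0.0773 for Farsa. That block spans all 9 libraries, those of p38α KO included. With the block in the 6 control and p38α/γ KO libraries alone, an alternative chosen after seeing the data, limma called 19 of 37 genes, against 43.4% of all genes. These 6 genes were then called, with adjusted p-values of 0.000902 for Dars, 0.0246 for Pars2, 0.00947 for Cars2, 0.00139 for Mars, 0.000732 for Iars and 0.0317 for Farsa. Without 1 library, 1 gene was called when any of the control libraries was left out, and 0 when p38α/γ KO 2 or p38α/γ KO 3 was. The share of all genes called in those fits is not given here, so a general loss of calls cannot be told apart. Without p38α KO 1, which enters this comparison only through the estimate of the spread and the filter, 17 genes were called, 13 of them lower, against 41.1% of all genes. A fit of the 6 control and p38α/γ KO libraries alone called 21, against 42.7% of all genes.

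In p38α KO, 4 of the 37 genes differed from control, all of them mitochondrial. Sars2 and Pars2 rose as given above, Fars2 rose 1.28-fold and Vars2 fell 1.32-fold. That is 10.8% of the members, against 17.8% of all genes tested, of which 7.32% rose and 10.4% fell. None of the 20 cytosolic genes was called in limma, and 1, Mars, had an unadjusted p under 0.05, as did 4468 of all 13137 genes tested. The cytosolic median was -0.05, the mitochondrial median 0.00 and the median over all genes 0.01. The sign of the cytosolic median depended on the setting: it was 0.06 without p38α KO 1, 0.04 under quantile normalisation and -0.15 without p38α KO 3.

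Fars2, the mitochondrial phenylalanine enzyme, which works as a single chain (chr13:36117412-36726280, + strand), measured 24.45, 19.14 and 23.73 in control, 27.18, 30.11 and 29.64 in p38α KO, and 23.35, 23.63 and 25.99 in p38α/γ KO. Only p38α KO lay wholly above control. Fars2 rose there (log2 0.36, SE 0.107, limma adjusted p = 0.0446), and its 0.12 in p38α/γ KO was not called. The direct contrast of the knockouts, 0.24 (adjusted p = 0.41), was not called. Fars2 shares 501 exonic bases with Nrn1 and 115 with Lyrm4, both on the opposite strand.

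Vars2, the mitochondrial valine enzyme (chr17:35655634-35667592, - strand), measured 11.44, 12.11 and 14.33 in control, 10.01, 9.686 and 8.198 in p38α KO, and 10.28, 10.04 and 8.786 in p38α/γ KO. Both knockouts lay below every control library. Vars2 fell in p38α KO (log2 -0.40, SE 0.12, limma adjusted p = 0.0451), and its -0.35 in p38α/γ KO had an adjusted p of 0.059.

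In this comparison the groups did not overlap for 10 of 37 genes, against 38.6% of all genes tested. The 5 mitochondrial genes wholly above control were Cars2, Fars2, Pars2, Sars2 and Tars2, and Vars2 was among the 2 wholly below it. Of the cytosolic genes, Farsa and Hars lay wholly above control and Mars wholly below it. Over all genes tested, 17.6% lay wholly above and 21.1% wholly below control. Of the mitochondrial genes not called in either knockout, Lars2 differed by 0.00 and -0.07, Wars2 (tryptophan) by -0.29 and -0.30, and Tars2 (threonine) by 0.22 and 0.17, for p38α KO and p38α/γ KO. Iars2, at -0.07 and -0.20, shares 22.9% of its exonic bases with Rab3gap2 on the opposite strand, so its value is uncertain. Hars and Hars2 lie head to head and share 195 exonic bases, and their values are uncertain for the same reason.

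The calls in p38α KO changed with the libraries used. Without control 1, control 2 or p38α KO 2, 1 gene was called, and without control 3 or any 1 of the p38α/γ KO libraries, 2. The share of all genes called in these fits is not given here, so a general loss of calls cannot be told apart. Without p38α KO 1, 4 genes were called, against 18.1% of all genes. Sars2 was called in all 9 fits that left out a library, with adjusted p-values up to 0.0399, whereas Fars2 and Vars2 each lost the call in 8 of them, with values up to 0.138 and 0.164.

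**Figure D4:**
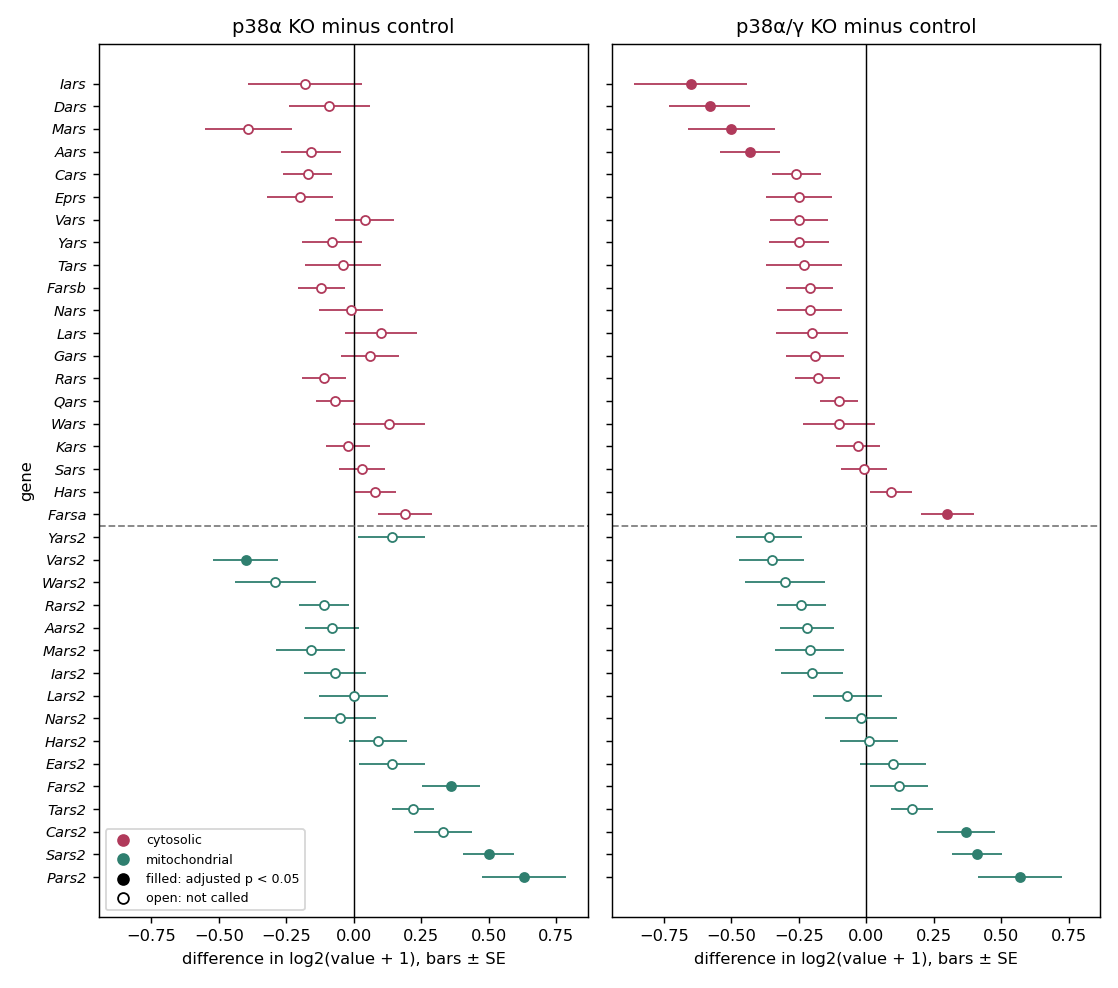
Fitted log2 difference from control of each of 36 genes, with its standard error, for p38α KO and p38α/γ KO, with called genes as filled points. Cytosolic genes lie mostly below 0 in p38α/γ KO, while mitochondrial genes spread to both sides in both knockouts.

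Within p38α KO the cytosolic genes differed between libraries together. Library 1 was the lowest of the 3 for 18 of 20 cytosolic genes and 9 of 17 mitochondrial genes, against 41.6% of all genes tested. Library 3 was the highest for 19 of 20 cytosolic and 5 of 17 mitochondrial genes, against 36.2% of all genes. The median ratio of library 3 to library 1 was 1.34 for cytosolic genes, with the highest, 1.97, for Iars. It was 1.03 for mitochondrial genes and 0.988 for all genes.

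Accordingly, the median coefficient of variation of the cytosolic genes was 5.5% in control, 14.7% in p38α KO and 3.78% in p38α/γ KO. For mitochondrial genes it was 7.6%, 8.35% and 8.27%, and for all genes 8.16%, 16% and 9.82%. The wide spread of the cytosolic genes in p38α KO was thus close to that of all genes there, and their spread in the other groups was below that of all genes. Per library, the cytosolic median log2 deviation from the control mean was -0.24, -0.02 and 0.14 in p38α KO. It was -0.20, -0.23 and -0.18 in p38α/γ KO and 0.04, -0.08 and 0.03 in control. The p38α/γ KO libraries all lay below the control libraries, and the p38α KO libraries spanned both groups. The mitochondrial median was -0.06, 0.16 and 0.05 in p38α KO, -0.13, -0.13 and -0.12 in p38α/γ KO, and 0.08, -0.05 and 0.02 in control, so for this class too the p38α/γ KO libraries lay below control. Library p38α KO 1, low for the cytosolic genes, also had the lowest fibre marker sum, with Myh4 low but Myh1 and Myh2 high. It had the highest macrophage marker sum as well. The part of these markers was not tested.

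**Figure D5:**
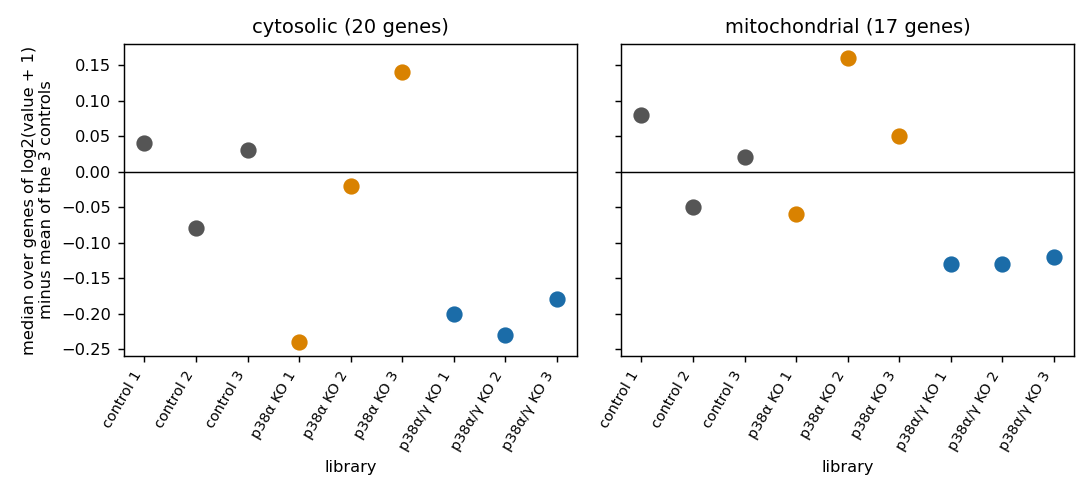
Median log2 deviation from the control mean over the cytosolic and the mitochondrial genes, with a point for each library. The cytosolic medians of p38α KO run from -0.24 to 0.14, and those of p38α/γ KO from -0.23 to -0.18.

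The direct contrast asks whether the knockouts differ from each other. None of the 37 genes was called in limma, against 0.442% of all genes tested (0.122% higher and 0.32% lower in p38α KO). Of the 37, 8 had an unadjusted p under 0.05, as did 1573 of all 13137 genes tested. The cytosolic median was 0.14 higher in p38α KO than in p38α/γ KO, with 18 of 20 genes above 0, and the mitochondrial median was 0.07 higher. Over all genes the median was -0.01. The groups did not overlap for Gars, Vars, Aars2, Fars2 and Yars2, 5 of 37 genes, against 14.3% of all genes, so this share was at the background. All 5 lay wholly higher in p38α KO, as did 6.73% of all genes. The largest differences were 0.50 for Yars2 (adjusted p = 0.153), 0.49 for Dars (0.238) and 0.47 for Iars (0.417).

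Without p38α KO 1, 9 genes were higher in p38α KO than in p38α/γ KO, against 14.3% of all genes called in either direction. They were Aars, Dars, Gars, Iars, Lars, Mars, Nars, Vars and Yars2, with limma adjusted p-values of 0.00793 for Iars, 0.00829 for Dars, 0.0179 for Aars, 0.0358 for Gars and 0.0364 for Mars. The cytosolic median was then 0.28. Whether the knockouts differ in these genes therefore rested on that library.

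Other genes of tRNA charging and use were called about as often as all genes. Of 23 such genes, 3 rose and 0 fell in p38α KO, against 17.8% of all genes called, and 3 rose and 2 fell in p38α/γ KO, against 25.6%. None was called between the knockouts. The scaffold proteins of the multi-synthetase complex, Aimp1, Aimp2 and Eef1e1, were not called in any comparison. Tarsl2, a further threonine enzyme of the cytosol whose symbol falls outside the naming rule, fell 1.64-fold in p38α/γ KO (log2 -0.71, SE 0.181, limma adjusted p = 0.022). It measured 88.2, 80.56 and 85.77 in control, 42.89, 64.0 and 74.99 in p38α KO, and 60.06, 46.57 and 48.19 in p38α/γ KO, so both knockouts lay below control.

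The mitochondrial elongation factors Tufm, which brings charged tRNA to the mitochondrial ribosome, and Tsfm, which recycles Tufm, rose in both knockouts. Tufm differed by 0.35 and 0.29 on the log2 scale (limma adjusted p = 0.0305 and 0.0479), and Tsfm by 0.67 and 0.57 (0.0333 and 0.0453), for p38α KO and p38α/γ KO. Gatb and Gatc, subunits of the enzyme that makes mitochondrial glutaminyl-tRNA, were each called once. Gatb rose by 0.50 in p38α KO (adjusted p = 0.0139), and Gatc fell by 0.37 in p38α/γ KO (0.0311). Each had the same sign in the other knockout, Gatb at 0.26 (limma adjusted p = 0.0968) and Gatc at -0.32 (0.0625). Neither was called between the knockouts. Eef1a1, the cytosolic factor that delivers charged tRNA in most tissues, rose by 0.58 in p38α/γ KO (0.0421). Its paralogue Eef1a2, the form typical of adult muscle, had differences of -0.19 (limma adjusted p = 0.188) in p38α KO and -0.28 (0.0546) in p38α/γ KO, and neither was called.

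A further list held targets of ATF4, most of them for amino acid supply. Of 17 measured genes on it, 3 rose and 0 fell in each knockout by limma, against 17.8% of all genes called in p38α KO (7.32% higher) and 25.6% in p38α/γ KO (11.2% higher). The median log2 difference was 0.06 in p38α KO and 0.28 in p38α/γ KO. Slc7a5, a transporter of large neutral amino acids, rose by 1.10 and 0.92 on the log2 scale (limma adjusted p = 0.00378 and 0.00726). Slc7a5 was a low gene, at 1.803 to 2.969 in control, 5.642 to 7.816 in p38α KO and 4.813 to 5.815 in p38α/γ KO. Cebpb rose by 0.46 and 0.53 and Shmt2, a mitochondrial enzyme of serine and glycine metabolism, by 0.31 and 0.28. Atf4 itself had differences of -0.01 and -0.03, and neither was called.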

How the data were processed

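Polyadenylated RNA from gastrocnemius was sequenced as 51-base single reads, per the labels' protocols. Per the submitters' processing notes, CASAVA 1.8, cutadapt, RSEM 1.3.1 and limma were used on GRCm38. The annotation release and the scaling are not given in the sources used here. The deposited table holds normalised counts, a signal per gene and library that the authors scaled. Within a library the values step evenly from the smallest one, as whole reads plus a constant would after scaling, and this gave the implied depth of each library (23820968 to 27944409 reads), which limits precision for genes as low as Pars2.

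From these values, any gene that reached 1 in 3 or more libraries was tested with limma 3.58.1 (R 4.3.3) on log2(value + 1). All 9 libraries entered 1 fit with trended empirical Bayes, and p-values were adjusted by Benjamini-Hochberg over all genes tested within each comparison, with a threshold of 0.05. Fold changes are on that scale. Coordinates and exon lengths came from GENCODE M21 (GRCm38), matched by identifier for 13172 of 13179 genes and for all 37 members. Alternatives covered the filter, pseudocount, scaling, trend, the libraries fitted, the threshold and a replicate block. The fitting was also run on simulated data in which no library stood apart, so that run does not cover a library like p38α KO 1. The outcome of that run is not given here.

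The labels give no pairing of the libraries, and matchings other than by the same replicate number were not tried. Deviations of same-numbered control and p38α/γ KO libraries correlated at 0.111, 0.124 and 0.148, and those of the other comparisons included negative values. Genes named with all their values were those called in any comparison, plus Gars, Kars and Wars; 1 member is counted but not reported by name here. The members, lists and motifs were chosen with earlier results of these data known.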

Additional observations from a re-analysis of the deposited data

How the results depend on the processing

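No called difference of a named gene changed sign under the alternatives run, and the median over all genes stayed between -0.02 and 0.02. In p38α KO against control, 4 genes were called. The count was 1 in a fit of those 6 libraries alone, 2 with a replicate block, 0 with a replicate block in those 6 libraries (an alternative chosen after seeing the data), 1 at an adjusted p below 0.01, 7 below 0.1, and 1 to 4 when leaving out a library. The cause of these changes was not tested. In p38α/γ KO against control, 9 were called. The count was 21 in the 6 libraries alone, 3 with a replicate block, 19 with a replicate block in the 6 libraries, 0 below 0.01, 14 below 0.1, and 0 to 17 when leaving out a library. Between the knockouts the count was 0 to 9, the 9 without p38α KO 1. In p38α/γ KO the share of all genes called was 25.6% in the main fit. It was 42.7% in the 6 libraries alone, 17.7% with a replicate block and 43.4% with both. Between the knockouts it was 0.442%, and 14.3% without p38α KO 1. For the other counts this share is not given here, so they do not describe the synthetase genes apart from all genes. Deviations of p38α KO libraries and same-numbered libraries of the other groups correlated at -0.331 to 0.0951.

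Quantile normalisation gave a mitochondrial median of 0.09 in p38α KO and -0.11 in p38α/γ KO, and a cytosolic median of -0.13 in p38α/γ KO. Leaving out a library gave ranges of -0.06 to 0.08 for the mitochondrial median in p38α KO, -0.13 to -0.02 in p38α/γ KO, and 0.04 to 0.28 for the cytosolic median between the knockouts. With 3 libraries a group, differences near 0.2 on the log2 scale were mostly not called.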

Other observations

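Synthetase genes that share a start region with a neighbour did not always move with it. Sars2 starts 172 bases from Mrps12, a mitochondrial ribosomal protein gene on the opposite strand. Sars2 rose in both knockouts, while Mrps12 had log2 differences of 0.14 in p38α KO (limma adjusted p = 0.617) and 0.13 in p38α/γ KO (0.628). Rars2, the mitochondrial arginine enzyme, starts 13 bases from Orc3, a subunit of the origin recognition complex. Orc3 fell in p38α/γ KO (log2 -0.68, limma adjusted p = 0.0184), and Rars2 differed by -0.24 there (0.0822). Yars and S100pbp start 33 bases apart, and Kars and Terf2ip 75 bases apart, and none of these 4 genes was called.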
